A study of Arabidopsis thaliana with 4 samples.

Results

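The 243 regions described here are the places in pericentromeric DNA of Arabidopsis thaliana where CG methylation was listed as lower in ndx1-4 than in Col-0, out of 2977 listed CG regions and 7023 listed regions of all 3 sequence contexts. They came from bisulfite sequencing of genomic DNA of 14-day-old seedlings, a method in which unmethylated cytosine is read as thymine and methylated cytosine stays cytosine. The 2 ndx1-4 libraries carried the ndx1-4 mutation of NODULIN HOMEOBOX (NDX), a homeobox gene of flowering plants, and the 2 Col-0 libraries were wild type. No other allele and no treatment was named for either genotype, and nothing said whether libraries of a genotype came from separate plants or pools. The labels gave 15000000 to 17000000 raw reads.

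A region was a member when it was a differentially methylated region (DMR) in the CG context, its deposited mean level was lower in ndx1-4 than in Col-0, and its midpoint lay in 1 of 5 windows: 12.9 to 16.9 Mb of chromosome 1, 2.0 to 6.6 Mb of chromosome 2, 11.2 to 16.0 Mb of chromosome 3, 2.4 to 5.8 Mb of chromosome 4 and 10.1 to 14.4 Mb of chromosome 5. The span 3250465 to 3509765 of chromosome 2, a nuclear copy of mitochondrial DNA, was left out together with its 45 CG regions, 43 of which were lower in ndx1-4. Members were therefore selected on the measured direction, so their levels and differences are a description without a test. Among all 2977 listed CG regions 45.4% were lower in ndx1-4, and among the 469 in the windows outside that span the share was 51.8% (95% Wilson interval 47.3 to 56.3%). This share is fixed by the selection and nothing was read from it. The files hold 1 mean level per genotype and neither single-library values nor coverage, so the depth behind a level is unknown, no spread between libraries could be given and nothing below was tested across libraries. Changes too small for the authors' calls are outside the list. Fell and rose below mean that the deposited mean of a listed region was lower or higher in ndx1-4.

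In plants, a cytosine can be methylated in the CG context and in the CHG and CHH contexts, where H is A, C or T. CG methylation is copied after DNA replication by the methyltransferase MET1 with the VIM proteins, which bind hemimethylated CG sites, and DDM1, a chromatin remodeler that opens heterochromatin to the methyltransferases; DME, ROS1, DML2 and DML3 are DNA glycosylases that remove it. CHG methylation is kept mainly by CMT3 and CHH methylation by CMT2 and by DRM2, the enzyme of RNA-directed DNA methylation. Pericentromeric DNA of Arabidopsis is rich in transposons and pseudogenes and is densely methylated in all contexts, whereas the bodies of many expressed genes carry CG methylation alone. None of these 9 CG genes (MET1, VIM1, VIM2, VIM3, DDM1, DME, ROS1, DML2, DML3) lay in the windows. Within 2 kb of them, 1 listed CG region each lay at VIM3, DML2 and DML3 and 0 at the other genes, and 0 of these fell.

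The sequences below show what these regions look like, since in a CG region the measurement comes from CG sites. They are given from the plus strand of TAIR10.1, as deposited by RefSeq, with each CG site in capitals. The deposited coordinates, used throughout, refer to TAIR10. The first 4 lay outside annotated genes. The region chr3:13328846-13328905 packs 7 CG sites into 60 bases and had a CG level of 0.0253 in ndx1-4, against 0.864 in Col-0. At chr4:4696538-4696716, with 8 CG sites, the level was 0.0816 in ndx1-4 and 0.923 in Col-0. At chr3:15342175-15342299, with 6 CG sites, it was 0.0299 in ndx1-4 and 0.852 in Col-0, and at chr3:14095664-14095841, with 17 CG sites, 0.0347 in ndx1-4 and 0.497 in Col-0.
chr3:13328846-13328905: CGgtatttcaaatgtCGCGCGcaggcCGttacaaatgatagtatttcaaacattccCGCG
chr4:4696538-4696716: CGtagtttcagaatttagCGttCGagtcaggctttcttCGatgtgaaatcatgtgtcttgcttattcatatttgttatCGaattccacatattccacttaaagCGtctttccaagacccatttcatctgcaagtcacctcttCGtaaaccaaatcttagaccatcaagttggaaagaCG
chr3:15342175-15342299: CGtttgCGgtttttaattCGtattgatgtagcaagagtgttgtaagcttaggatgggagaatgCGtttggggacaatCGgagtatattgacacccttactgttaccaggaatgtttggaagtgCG
chr3:14095664-14095841: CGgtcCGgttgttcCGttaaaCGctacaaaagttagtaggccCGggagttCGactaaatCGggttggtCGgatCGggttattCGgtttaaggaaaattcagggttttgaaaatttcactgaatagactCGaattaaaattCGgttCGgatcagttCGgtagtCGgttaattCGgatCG

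The next 2 lay in protein-coding genes. The region chr2:3516769-3517004 lay in ABCC13 (AT2G07680), a gene for a transporter of the ABCC family, and its level was 0.0428 in ndx1-4 and 0.709 in Col-0, with 18 of its 24 reference CG cytosines counted, so not every capital letter was measured. The region chr4:3666797-3666910 lay in AT4G06599, annotated as a ubiquitin family protein, with 0.0521 in ndx1-4 and 0.397 in Col-0.
chr2:3516769-3517004: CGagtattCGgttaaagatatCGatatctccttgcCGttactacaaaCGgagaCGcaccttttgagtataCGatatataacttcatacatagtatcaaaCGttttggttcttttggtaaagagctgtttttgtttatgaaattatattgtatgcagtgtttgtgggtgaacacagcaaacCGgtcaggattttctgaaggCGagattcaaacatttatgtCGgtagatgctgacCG
chr4:3666797-3666910: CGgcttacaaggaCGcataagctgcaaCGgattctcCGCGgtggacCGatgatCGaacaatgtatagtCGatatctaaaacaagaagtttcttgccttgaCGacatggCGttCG

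The last sequence, chr1:12995802-12996051, lay in the long noncoding RNA gene AT1G06883 and is shown because a neighbouring context went the other way. Its CG level was 0.412 in ndx1-4 and 0.842 in Col-0, with 25 of 26 CG cytosines counted, while a CHH region sharing 16 bases with its right end rose to 0.143 in ndx1-4, against 0.0728 in Col-0.
chr1:12995802-12996051: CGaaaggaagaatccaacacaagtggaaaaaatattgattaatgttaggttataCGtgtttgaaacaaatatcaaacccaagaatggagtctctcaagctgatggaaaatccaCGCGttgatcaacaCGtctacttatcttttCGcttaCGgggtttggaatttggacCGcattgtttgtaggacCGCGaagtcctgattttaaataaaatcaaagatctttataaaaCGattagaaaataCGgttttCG

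Across the 243 members the CG level in ndx1-4 had a median of 0.0957 (95% order-statistic interval 0.0729 to 0.135) and ran from 0.0111 to 0.855. In Col-0 the median was 0.627 (0.576 to 0.669), with a range of 0.136 to 0.944. The median difference, ndx1-4 minus Col-0, was -0.41 (-0.44 to -0.37), and single differences ran from -0.86 to -0.06. These intervals cover the choice of regions and not the spread between libraries. A member was typically short: the median length was 120 bp (51 to 1091 bp) with a median of 9 counted cytosines (4 to 75). A CG site counts on both strands, so a site can give a pair of counted cytosines.

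The remaining level in ndx1-4 varied widely among members. In 126 members (51.9%) the ndx1-4 level was under 0.1. Their median was 0.0338 in ndx1-4, against 0.496 in Col-0. In 82 members it was from 0.1 to 0.5, with medians of 0.214 in ndx1-4 and 0.678 in Col-0. In 35 members (14.4%) the ndx1-4 level was at least 0.5, with medians of 0.726 in ndx1-4 and 0.883 in Col-0 and a median difference of -0.14. These 35 were shorter, with a median of 85 bp against 120 bp over all members, and 20 of them had another copy in the nuclear genome, against 48 of all 243. The classes were set on the measured levels, and the boundaries are arbitrary.

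The 226 CG regions that rose in the same windows were close to a mirror image in size. Their median level was 0.665 in ndx1-4 and 0.171 in Col-0, and the median difference was 0.40. The lower of the pair of genotype means was under 0.1 in 126 of 243 members, as given above, and in 79 of the 226 gains (35.0%, 29.0 to 41.4%). The 968 CG losses on the chromosome arms had medians of 0.0650 in ndx1-4 and 0.550 in Col-0, so the members had a higher median level in Col-0 beside a similar median difference (-0.41 in the members and -0.42 on the arms). The median arm loss was 105 bp long. All these levels belong to the contrast that chose the regions, and no test was made.

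**Figure D1:**
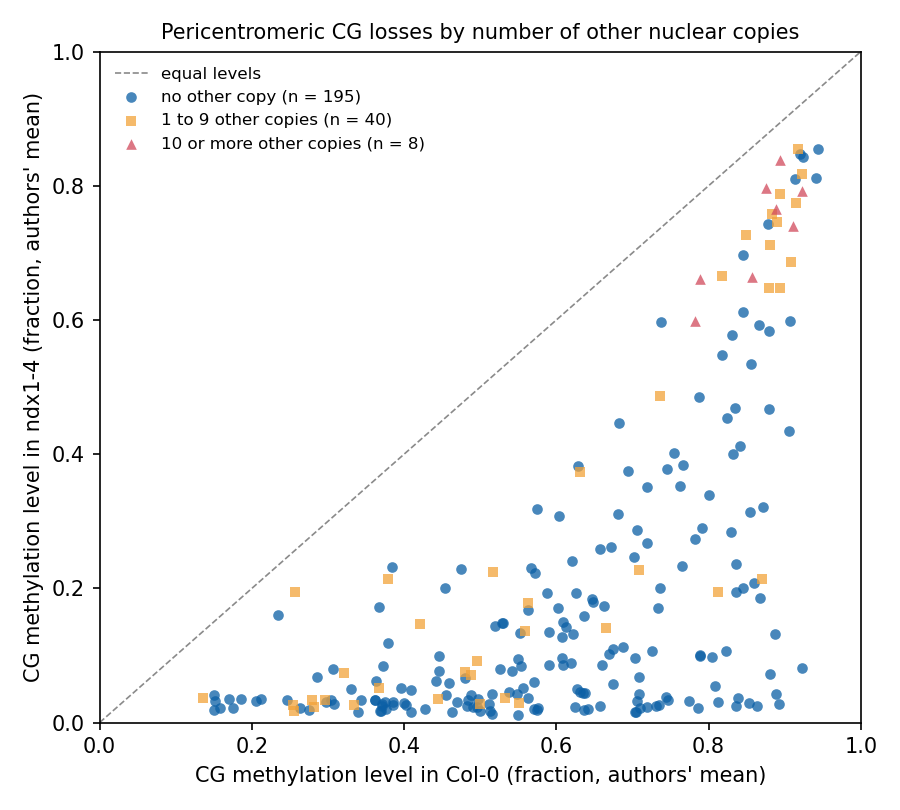
CG methylation level of each of the 243 members in ndx1-4 (vertical axis) against Col-0 (horizontal axis), as the authors' mean fractions. Circles are members with no other nuclear copy, squares have 1 to 9 and triangles 10 or more other copies, and the dashed line marks equal levels, below which all members lie by selection. All 8 triangles lie at an ndx1-4 level of at least 0.5, as do 12 of the 40 squares and 15 of the 195 circles. Under 0.1 lie 110 circles, 16 squares and 0 triangles, beside 126 of all 243 members.

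The members with the largest area statistic, the authors' summed statistic of a region, were mostly long, 8 of the first 10 being 303 bp or more against a median of 120 bp. The first was chr2:4543052-4544142, 1091 bp with 52 counted cytosines, which fell to 0.133 in ndx1-4, against 0.887 in Col-0. It covered AT2G11405, a gene for an uncharacterized protein, whole (348 bases of coding sequence) and reached into the pseudogene AT2G11410. On the same chromosome, chr2:2518469-2518958 (490 bp) had 0.0729 in ndx1-4 and 0.881 in Col-0, chr2:4507611-4508478 (868 bp) had 0.10 in ndx1-4 and 0.788 in Col-0, and chr2:4307903-4308805 (903 bp) had 0.195 in ndx1-4 and 0.836 in Col-0. None of these 3 overlapped an annotated gene. Of the 10 members ranked highest, 6 lay on chromosome 2.

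The other members ranked highest were spread over chromosomes 1, 2, 3 and 5. At chr5:14089098-14089947 (850 bp), which overlaps the pseudogene AT5G35935, the level was 0.0419 in ndx1-4 and 0.515 in Col-0, with 52 of 66 reference CG cytosines counted. At chr1:13699191-13699627 (437 bp), 452 bp from the gene AT1G36370, it was 0.0195 in ndx1-4 and 0.575 in Col-0. The intergenic region chr2:3012778-3013080 had 0.0328 in ndx1-4 and 0.774 in Col-0, and chr2:4944860-4945366 kept 0.322 in ndx1-4, against 0.871 in Col-0. The 60-bp and the 178-bp regions of chromosome 3 printed above complete the 10.

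The 5 largest differences were in regions of 60 to 179 bp with Col-0 levels of 0.852 to 0.923. An intronic stretch of AT4G04750, annotated as a major facilitator superfamily transporter, at chr4:2420591-2420661 had 0.0273 in ndx1-4 and 0.892 in Col-0. An intronic stretch of AT4G09040, an RNA-binding protein, at chr4:5795448-5795564 had 0.0430 in ndx1-4 and 0.889 in Col-0, from 4 counted cytosines only. The other 3 were chr3:13328846-13328905, chr3:15342175-15342299 and chr4:4696538-4696716, whose sequences are shown above. The 3 smallest differences stood at the opposite end. They were chr4:3749433-3749532 in the pseudogene AT4G06628 (0.838 in ndx1-4 and 0.894 in Col-0), chr2:4632955-4633107 (0.855 in ndx1-4 and 0.918 in Col-0) and chr3:14194946-14195252 (0.194 in ndx1-4 and 0.257 in Col-0). All 3 had other copies in the nuclear genome.

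Methylation outside CG is a readout that the selection did not use, although it comes from the same libraries. A listed CHG region shared at least 1 base with 48 of the 243 members (19.8%, Wilson interval 15.2 to 25.2%), and in all 48 a CHG region fell. Over all 2867 nuclear CG regions, gains included, 5.20% overlapped a CHG region that fell. A listed CHH region overlapped 31 members (12.8%, 9.13 to 17.5%), and in 29 of them a CHH region fell, where 4.53% of all nuclear CG regions overlapped a CHH region that fell. Both backgrounds pool CG gains with CG losses, so the losses on the arms are given too. Of these, 84 of 968 (8.68%, 7.06 to 10.6%) overlapped a CHG region that fell and 99 (10.2%, 8.47 to 12.3%) a CHH region that fell. The arm losses also differ from the members in gene content, with 62.0% against 23.5% overlapping a protein-coding gene. The part of gene content in these shares was not tested. Among the CG gains of the windows, 25 of 226 (11.1%, 7.61 to 15.8%) overlapped a CHG region, all of which rose, and 33 (14.6%, 10.6 to 19.8%) a CHH region, with a rise in 31 and a fall in 2. The intervals count regions only, and the differences between these shares were not tested.

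By context, 20 members overlapped both CHG and CHH regions, 28 a CHG region only, 11 a CHH region only and 184 (75.7%, 70.0 to 80.7%) neither. The share with neither was 80.1% of the CG gains in the windows and 85.5% of the CG losses on the arms. Within 500 bp there was a listed CHG region at 58 members and a listed CHH region at 54. Members with both were longer (median 229.5 bp) than members with neither (106.5 bp) and had a larger median difference in CG (-0.53 against -0.38). Length thus moved with overlap, and its part in these counts was not tested. Where a CHG region had to cover at least 50% of the member, the share was 12.3%, and among members with at least 10 counted cytosines 20.3% overlapped a CHH region.

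Where a CHG or CHH region fell, its remaining level was low. Where several overlapped a member, the one sharing most bases was taken. Over the 47 members with falling CHG regions only, the median CHG level was 0.0295 in ndx1-4 (0.00733 to 0.313), against 0.273 in Col-0 (0.126 to 0.602), and the CG level of the same members had medians of 0.0855 in ndx1-4 and 0.649 in Col-0. Over the 26 members with falling CHH regions only, the median CHH level was 0.0165 in ndx1-4 (0.00819 to 0.114), against 0.0902 in Col-0 (0.0566 to 0.226). These CHH ranges overlapped. In the 19 members where both a CHG and a CHH region fell, the highest CHH level in ndx1-4 was 0.0287, below the lowest in Col-0, 0.0566. In CHG the highest ndx1-4 level was 0.20 and the lowest Col-0 level 0.166, so these ranges overlapped. These CHG and CHH regions were themselves listed for a difference, so their levels describe the list.

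**Figure D2:**
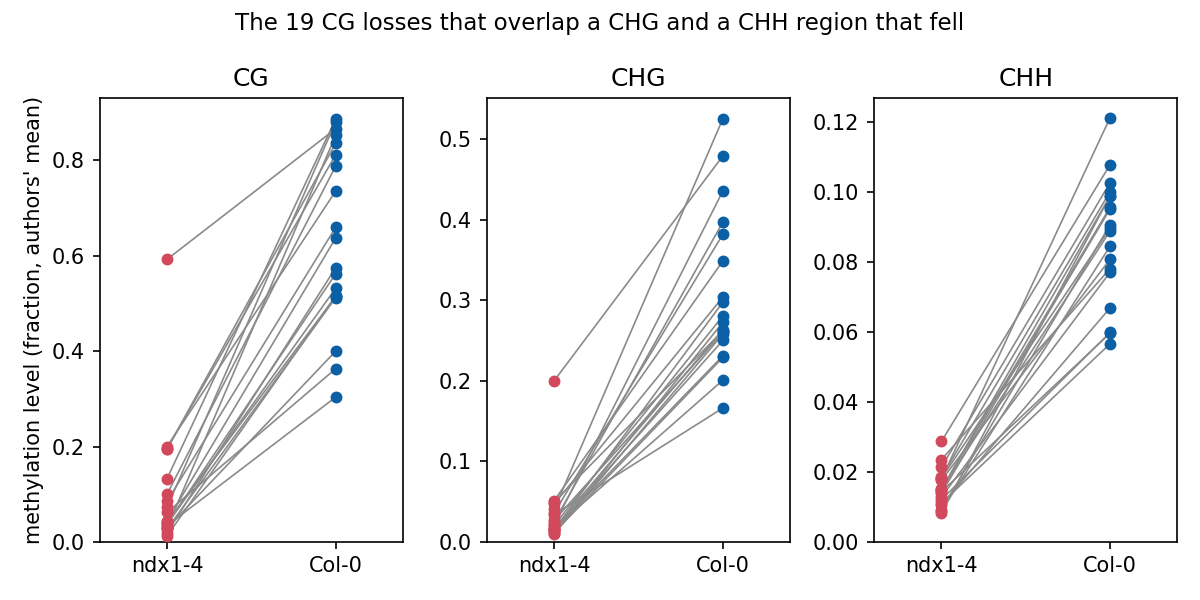
Methylation level (authors' mean fraction, a separate vertical scale for each panel) in ndx1-4 (left) and Col-0 (right) of the 19 members that overlap a CHG and a CHH region that fell, in CG for the member and in CHG and CHH for the overlapping region. Each line joins the levels of 1 member. The CHH points of ndx1-4 reach 0.0287 at most and those of Col-0 start at 0.0566. All these regions were listed for a difference, so the gap describes the list. In CG, 1 member kept a level of 0.592 in ndx1-4.

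The members named for losses in all contexts were 5. At chr2:2518469-2518958 CHG fell to 0.0471 in ndx1-4, against 0.304 in Col-0, and CHH to 0.0104 in ndx1-4, against 0.0669 in Col-0. At chr5:14089098-14089947 CHG fell to 0.0156 in ndx1-4, against 0.25 in Col-0, and CHH to 0.0179 in ndx1-4, against 0.121 in Col-0. At chr2:4307903-4308805 the CHG levels were 0.0514 in ndx1-4 and 0.349 in Col-0 and the CHH levels 0.0111 in ndx1-4 and 0.0566 in Col-0. The other 2, both on chromosome 2, also touched regions that rose and are described next.

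In 5 members an overlapping CHG or CHH region went the other way from CG. Within chr2:4543052-4544142 the interior fell in CHG (0.0405 in ndx1-4 and 0.526 in Col-0 over 681 shared bases), whereas at the left end a CHG region rose to 0.785 in ndx1-4, against 0.519 in Col-0 (85 shared bases). There a CHH region, of which 75 bases were shared, rose to 0.239 in ndx1-4, against 0.0631 in Col-0, while in the interior CHH fell to 0.0150 in ndx1-4, against 0.0989 in Col-0. Next to chr2:4507611-4508478, where CHG fell to 0.0106 in ndx1-4, against 0.273 in Col-0, and CHH to 0.0121 in ndx1-4, against 0.0599 in Col-0, a CHH region sharing 36 bases at the right end rose to 0.168 in ndx1-4, against 0.0623 in Col-0. At chr4:4989926-4990306, which overlaps the pseudogene AT4G08093 and had CG levels of 0.384 in ndx1-4 and 0.766 in Col-0, CHG fell to 0.0189 in ndx1-4, against 0.296 in Col-0, and CHH rose at the left end to 0.243 in ndx1-4, against 0.133 in Col-0. At chr3:13331555-13332476 a CHH region at the left end rose (0.0434 in ndx1-4 and 0.00645 in Col-0) and one in the interior fell (0.00862 in ndx1-4 and 0.0463 in Col-0). The fifth is the region of AT1G06883 shown above. In all 5 the shared bases of the rising region lay at an end of the member, between 16 and 92 of them.

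Protein-coding genes overlapped 57 members (23.5%, 18.6 to 29.2%), in 55 distinct genes, and 48 of these members lay wholly within the gene. Coding sequence was touched in 42, and 8 lay in introns alone. Protein-coding genes cover 13.0% of the window bases and 18.6% of the bases of the members. In the gains of the windows 66 of 226 (29.2%, 23.7 to 35.4%) overlapped such a gene, and on the arms 600 of 968 losses (62.0%, 58.9 to 65.0%). Members in genes had a lower median level in both genotypes (0.0575 in ndx1-4 and 0.559 in Col-0) than members outside genes and pseudogenes (0.0924 in ndx1-4 and 0.636 in Col-0). Of the 57, 9 overlapped a CHG region and 5 a CHH region. In 31 of the 57 at least 1 CG cytosine of the reference was not counted by the authors, against 47 of all 243, and among members with every CG cytosine counted 13.3% overlapped a protein-coding gene.

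Among the 10 gene members ranked highest, the region in ABCC13 spanned an intron and 80 bases of coding sequence, and its CHG level was 0.0193 in ndx1-4 and 0.233 in Col-0. In AT5G28960, annotated as an alpha-(1,6)-fucosyltransferase, chr5:10997226-10997578 had 236 coding bases and CG levels of 0.184 in ndx1-4 and 0.647 in Col-0. AT2G14695, annotated as a nucleotide sugar transporter, held the intronic member chr2:6291182-6291408 with 0.0773 in ndx1-4 and 0.542 in Col-0. A second intronic member of that gene, ranked lower and named after its values were seen, was chr2:6292067-6292164 with 0.0333 in ndx1-4 and 0.361 in Col-0. At AT2G12405, chr2:5010757-5010966 lost all 3 contexts: CG levels were 0.0855 in ndx1-4 and 0.660 in Col-0, CHG levels 0.0268 in ndx1-4 and 0.260 in Col-0, and CHH levels 0.0235 in ndx1-4 and 0.0781 in Col-0. At AT4G08400, annotated as a proline-rich extensin-like protein of the cell wall, chr4:5323093-5323652 (560 bp) touched the gene with 47 bases, none of them coding, and had 0.0329 in ndx1-4 and 0.344 in Col-0.

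Some members lay in genes with known roles, named here for those roles after their values were seen. In coding sequence of GLR3.3, a glutamate receptor-like channel, the CG level was 0.0206 in ndx1-4 and 0.377 in Col-0. Of 15 reference CG cytosines there, 8 were counted. In PMI1, needed for chloroplast movement, the CG level was 0.0211 in ndx1-4 and 0.158 in Col-0, with 17 of 33 counted. In BZIP60, a transcription factor of the unfolded protein response, it was 0.20 in ndx1-4 and 0.453 in Col-0, and in HK2, a cytokinin receptor kinase, 0.0860 in ndx1-4 and 0.609 in Col-0 from 4 counted cytosines. In EGY1, a chloroplast metalloprotease, it was 0.0451 in ndx1-4 and 0.631 in Col-0, also from 4, and in ARGAH2, an arginase, 0.0943 in ndx1-4 and 0.550 in Col-0. None of these 6 regions overlapped a listed CHG or CHH region, as was so for 47 of the 57 members in protein-coding genes. Expression was not measured in these libraries.

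Pseudogenes, which in this annotation include many transposon remnants, cover 34.8% of the window bases. They cover 10.8% of the bases of the members and 6.84% of the bases of the gains. They overlapped 35 members (14.4%, 10.5 to 19.4%), against 21 of 226 gains (9.29%, 6.16 to 13.8%) and 28 of 968 arm losses (2.89%, 2.01 to 4.15%). The 34 that touched a pseudogene and no protein-coding gene had the higher remaining level, with medians of 0.269 in ndx1-4 and 0.755 in Col-0, and 14 of them had another copy. No annotated gene or pseudogene overlapped 145 members (59.7%, 53.4 to 65.6%), against 58.8% of the gains and 32.9% of the arm losses. Another RNA gene overlapped 8 members. Transposon annotation was not used here. The median GC content was 35.4% in members, 35.8% in the gains and 40.3% in the arm losses, while the windows as a whole held 36.7%. Members held a median of 4.03 CG sites in 100 bp, the gains 3.95 and the arm losses 4.64, and the windows as a whole 2.38. A region of the list begins and ends on a CG cytosine, which raises its density by construction.

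**Figure D3:**
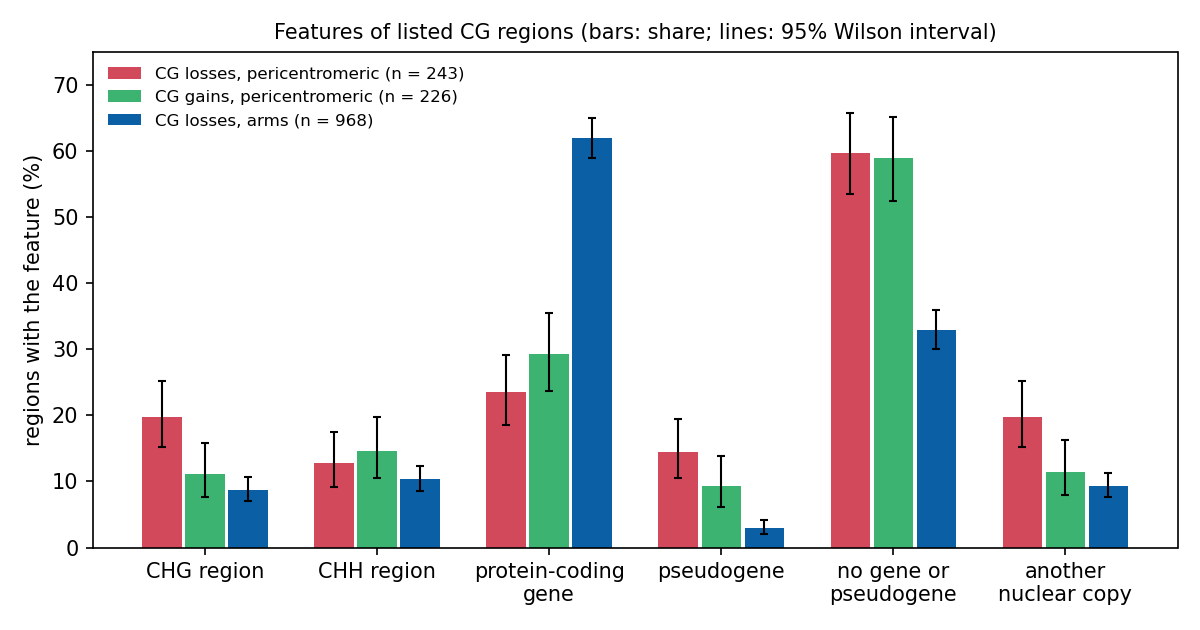
Share (%) of the 243 members, the 226 CG gains of the same windows and the 968 CG losses on the arms with each feature. The features are overlap with a listed CHG region, CHH region, protein-coding gene or pseudogene, no overlap with a pseudogene or any annotated gene (RNA genes included), and another nuclear copy. Bars are shares and lines 95% Wilson intervals for the counting of regions. Members (59.7%) and gains (58.8%) lie close together outside genes, and the arm losses stand at 62.0% in protein-coding genes.

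To see how far members belonged to repeated DNA, the reference sequence of each was searched against the nuclear chromosomes. Another copy, a hit elsewhere with at least 90% identity over at least 80% of the region, was found for 48 members (19.8%, 15.2 to 25.2%), against 26 of 226 gains (11.5%, 7.97 to 16.3%) and 90 of 968 arm losses (9.30%, 7.63 to 11.3%). At 80% identity 87 members had a copy, at 95% identity 24, and 6 had an identical copy. In the upper 50% of members by area statistic the share with a copy was 12.3%. The 195 members without a copy had medians of 0.0816 in ndx1-4 and 0.624 in Col-0, and the 48 with a copy 0.220 in ndx1-4 and 0.687 in Col-0, with median differences of -0.45 without and -0.24 with a copy. With 1 to 9 other copies the median difference was -0.25, and with 10 or more it was -0.13. The median Col-0 level was 0.555 with 1 to 9 other copies and 0.882 with 10 or more. The part of copies or of the Col-0 level in the difference was not tested.

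The 8 members with 10 or more other copies had small losses, with medians of 0.753 in ndx1-4 and 0.882 in Col-0 and a median difference of -0.13. Most copied was chr1:14497953-14498009, 57 bp with 186 other copies over all 5 chromosomes, 181 of them in the windows, at 0.797 in ndx1-4 and 0.875 in Col-0. Of its other copies 34 were identical, so its level may not belong to this place alone. The pseudogene region chr4:3749433-3749532 had 148 other copies (0.838 in ndx1-4 and 0.894 in Col-0), and these members share sequence, the 57 bp of the first being identical to part of the second. At chr5:13045767-13045875, with 105 other copies, the level was 0.791 in ndx1-4 and 0.922 in Col-0. None of the 8, with a median length of 90.5 bp, overlapped a listed CHG or CHH region, beside 184 of all 243 members (75.7%) that overlapped neither. Besides that pair, sequence was shared by 3 other pairs of members, among them the regions of the extensin-like genes AT4G08400 and AT4G08410 (94.8% identity over 251 bp), whose levels were 0.0329 and 0.0518 in ndx1-4 and 0.344 and 0.367 in Col-0. Members of such a pair are not independent of each other.

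The member with the most counted cytosines, 75 in 307 bp, was chr3:14194946-14195252, 2425 bp before the start of the 18S ribosomal RNA gene AT3G41768 (14197677 to 14199484 of chromosome 3, plus strand). Its identical copy lay at 14192281 to 14192587 of the same chromosome, and a copy of 96.7% identity lay near the end of chromosome 2 (1164 to 1469), before the 18S gene AT2G01010, so it belongs to the spacer of ribosomal DNA, whose many units the assembly holds only in part. Its CG level was 0.194 in ndx1-4 and 0.257 in Col-0, the lowest Col-0 level among the 3 smallest differences. Reads of other units may be part of these levels. A CHG region at the left end of the member fell as well, with 0.0940 in ndx1-4 and 0.139 in Col-0. Another 2 members beside the span left out, at 3241885 to 3242005 and 3244913 to 3245006 of chromosome 2, matched the mitochondrial genome. The first, in AT2G07773, had 0.137 in ndx1-4 and 0.559 in Col-0, and the second 0.214 in ndx1-4 and 0.378 in Col-0. Mitochondrial reads may be part of the levels of both.

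Chromosome 2 held 75 members, chromosome 3 held 55, chromosome 4 held 44, chromosome 5 held 36 and chromosome 1 held 33. Per Mb counted this was 17.3 on chromosome 2, 12.9 on chromosome 4, 11.5 on chromosome 3, 8.60 on chromosome 1 and 8.39 on chromosome 5. The gains were ordered differently, with 13.8 per Mb on chromosome 4 first and 9.45 and 9.39 on chromosomes 2 and 3. Chromosome 2, with 30.9% of all members, held 22 of the 48 members with a CHG region and 13 of the 31 with a CHH region. Without chromosome 2, 15.5% of members overlapped a CHG region, against 19.8% with it, and 10.7% a CHH region, against 12.8%. These differences were not tested. Median levels by chromosome ran from 0.0619 (chromosome 1) to 0.113 (chromosome 4) in ndx1-4 and from 0.575 (chromosome 1) to 0.674 (chromosome 2) in Col-0.

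Within the windows, members were fewer towards the middle, and so were the gains. Bases and CG sites open to measurement were not counted for the central part alone, so these shares are not densities. The span of chromosome 2 that was left out lay in the central part, and with it kept the share of members there was 39.5%. The central 50% of the window length held 70 members (28.8%, 23.5 to 34.8%), against 53 of 226 gains (23.5%, 18.4 to 29.4%). On chromosome 1 it held 3 of 33 and on chromosome 2 31 of 75. The 70 inner members had higher levels in both genotypes, with medians of 0.178 in ndx1-4 and 0.740 in Col-0, than the 173 outer ones, with 0.0763 in ndx1-4 and 0.590 in Col-0. Another copy was found for 19 of the 70 inner members (27.1%) and 29 of the 173 outer ones (16.8%), and a protein-coding gene overlapped 10 inner members (14.3%) and 47 outer ones (27.2%).

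**Figure D4:**
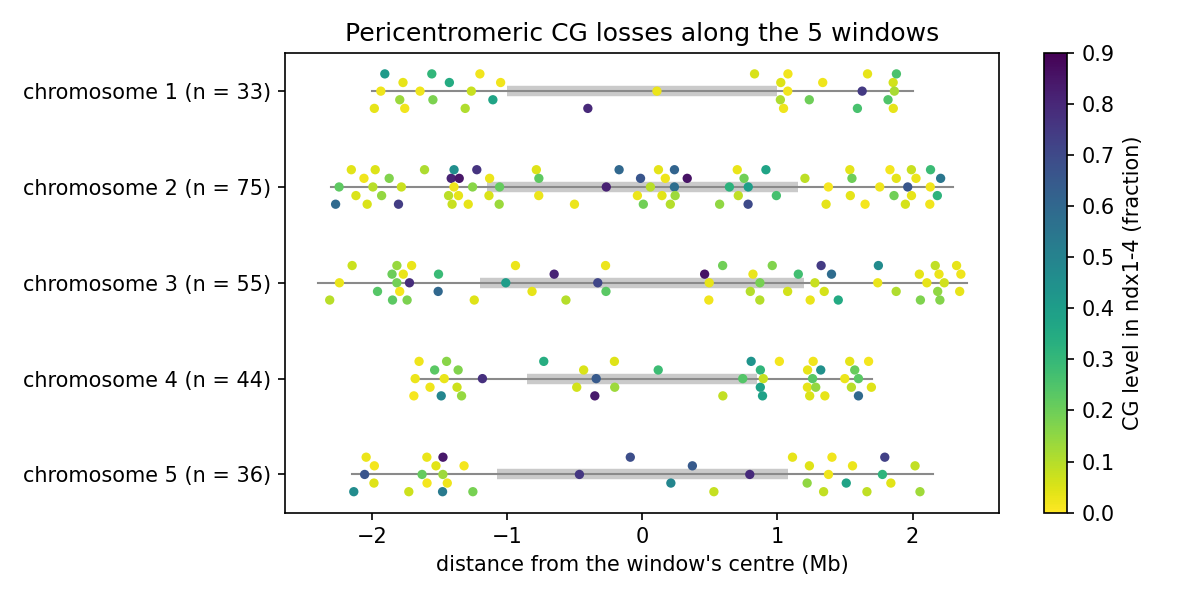
Members along the 5 windows, by distance of the midpoint from the window's centre (Mb, horizontal axis), with points spread vertically only to separate them. The thin line is the window, the thick grey bar its central 50%, and the colour the CG level in ndx1-4 (fraction). Chromosome 1 has 3 members in the central part and chromosome 2 has 31.

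Most members stood alone. The median distance to the nearest other CG loss was 21309 bp and to the nearest CG gain 23958 bp. Merging members within 1 kb left 232 loci, 11 of them pairs. In some pairs the levels differed widely, and in others they were close. At 5699733 to 5699800 of chromosome 4 the level was 0.597 in ndx1-4 and 0.737 in Col-0, and 51 bp further 0.231 in ndx1-4 and 0.384 in Col-0. At AT5G28720 on chromosome 5 a member had 0.843 in ndx1-4 and 0.924 in Col-0. Its neighbour had 0.133 in ndx1-4 and 0.553 in Col-0, from 4 counted cytosines only. Close levels were seen at chr4:5322051-5322412 and chr4:5323093-5323652, with 0.0335 and 0.0329 in ndx1-4 and 0.362 and 0.344 in Col-0. A CG gain lay within 1 kb of 9 members (3.70%, 1.96 to 6.89%).

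At the 10 window limits, the member nearest the limit lay 4.49 to 119 kb inside it and the nearest CG loss beyond it 1.66 to 404 kb outside. The 10 members just inside had levels of 0.0127 to 0.592 in ndx1-4 and 0.170 to 0.889 in Col-0, and the 10 losses just beyond had 0.0150 to 0.757 in ndx1-4 and 0.343 to 0.90 in Col-0, so the ranges overlapped. The closest pair stood at the start of the chromosome 1 window, where the member 18.5 kb inside had 0.0348 in ndx1-4 and 0.170 in Col-0, and the loss 1.66 kb outside had 0.0512 in ndx1-4 and 0.732 in Col-0. The widest gap was at the start of the chromosome 4 window, with a member 10.8 kb inside (0.0127 in ndx1-4 and 0.516 in Col-0) and the next loss 404 kb outside (0.0362 in ndx1-4 and 0.90 in Col-0).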

How the data were processed

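Genomic DNA of 14-day-old seedlings was bisulfite-converted and sequenced in 2 ndx1-4 and 2 Col-0 libraries, grouped by the sample titles. Per the labels, DNA was treated with the EZ DNA Methylation Gold kit and sequenced as paired ends, and the submitters' processing notes name Bismark and the TAIR10 build. The region caller and its thresholds are not given in the sources used here. The authors deposited 1 table of regions called between the genotypes in CG, CHG and CHH, with the methylation level as a fraction, 1 mean for each genotype. The area statistic that the authors deposited, a score, holds their comparison and was used only to rank regions, for naming and for 1 alternative, and their difference column was not used. The number of cytosines was used as deposited. The lists per context repeat the table's regions and were left out.

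Coordinates were treated as 1-based, and all 243 members began and ended on CG cytosines of the TAIR10.1 assembly, whose RefSeq annotation gave genes. Copies were searched with blastn 2.17.0+ (e-value 1e-3), checked on simulated data with planted copies. Tables were made with Python 3.11.15, pandas 2.3.3 and scipy 1.17.1. Depth per sample is unknown beyond the stated read number. Shares have Wilson intervals and medians order-statistic intervals at 95%, both for the counting of regions only. The named regions were the 10 with the largest area statistic and the first of each chromosome, the 5 largest and 3 smallest differences, the 5 first in all contexts, the 10 first in protein-coding genes, those with another context in the other direction and those nearest the window limits. Of the 10 in protein-coding genes, 2 in the same gene are not reported here. Members, lists and this rule were chosen with earlier results of these data known. Alternatives changed window limits, thresholds, overlap and identity, and single chromosomes were left out.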

Additional observations from a re-analysis of the deposited data

How the results depend on the processing

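Under 20 settings, 147 of 167 values of the 10 results with an interval stayed inside the interval of the reported value and 20 did not. The number of members stayed within 1.5 times the reported number in 13 of 16 cases, and was 148 with windows narrowed by 0.5 Mb at each end, 122 in the upper 50% by area statistic and 118 with at least 10 cytosines. With narrowed windows the median Col-0 level was 0.691, 18.2% of members overlapped a protein-coding gene and 37.8% lay in the central 50% of the window. The median difference was -0.36 with the mitochondrial copy kept, -0.45 with an absolute difference of at least 0.2, -0.48 in the upper 50% by area statistic and -0.45 without members that have another copy. The share with a CHG region was 28.7% in the upper 50%, 27.1% with at least 10 cytosines and 12.3% where 50% of the member had to be covered. The share with a CHH region was 19.7%, 20.3% and, within 500 bp, 22.2%. Counting only regions with every CG cytosine counted, 13.3% overlapped a protein-coding gene. The share with another copy was 13.8% with a difference of at least 0.2, 12.3% in the upper 50%, 35.8% at 80% identity and 9.88% at 95% identity. The share in the central 50% was 39.5% with the mitochondrial copy kept and 23.2% without chromosome 2. The settings on mitochondrial matches, other copies and fully counted regions were chosen after seeing the data. The cause of these shifts was not tested beyond what each setting removes.

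No paired analysis was possible because the files hold 1 mean per genotype, and for the same reason no library was left out. The coverage behind each level is unknown.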
